A study of Mus musculus with 24 samples.

Results

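The comparison described here asks whether loss of GRIP1 changes what dexamethasone (Dex) does to open chromatin in macrophages. It is the Dex by genotype interaction: the Dex effect in GRIP1 knockout cells minus the Dex effect in wild-type cells, both on the log2 scale. It rests on 16 of the 24 libraries of the series, chosen by the genotype and treatment in their titles. Open chromatin was measured by ATAC-seq, where a transposase inserts sequencing adapters into accessible DNA. The cells were bone marrow derived macrophages of male C57BL/6 mice aged 8 to 10 weeks. The knockout (KO) cells were LysM-Cre+/+; GRIP1fl/fl and received 100 nM Dex (KO Dex, 4 libraries) or vehicle (KO vehicle, 4 libraries). The wild-type (WT) cells were LysM-Cre+/+; GRIP1wt/wt and received the same Dex (WT Dex, 4 libraries) or vehicle (WT vehicle, 4 libraries). Both genotypes therefore carried the Cre recombinase, which is driven from the LysM locus in myeloid cells, and deletion in KO cells rests on how completely that recombinase acted. Titles give 24 h for all 4 groups, but vehicle libraries carry 25 h in their treatment label. Whether a group's libraries stem from different mice or cultures is not stated, so the p-values reflect library-to-library spread alone, which may be technical.

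Dex binds the glucocorticoid receptor, a nuclear receptor that then enters the nucleus, binds DNA and opens or closes chromatin near its target genes. GRIP1, encoded by Ncoa2, is a p160 coactivator: it docks on the ligand-bound receptor and recruits histone acetyltransferases and other regulators, and it is also known to take part in glucocorticoid repression of inflammatory genes in macrophages. The interaction compares what the receptor's ligand did to each accessible site with and without an intact gene for this cofactor.

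The libraries held 9970100 to 17845255 counts in peaks in KO Dex, 7552327 to 14089351 in KO vehicle, 5820149 to 21939330 in WT Dex and 9119982 to 13224169 in WT vehicle. Of 144411 deposited peaks, 130103 passed the filter on low counts. Levels are CPM, a peak's counts as a share of the library's total scaled by TMM factors. Macrophage markers were accessible throughout: summed CPM over the 15 macrophage genes was 2521 to 2678 in KO Dex, 2508 to 2602 in KO vehicle, 2575 to 2706 in WT Dex and 2492 to 2656 in WT vehicle, and none of the 15 was at 0. Lists for 7 other cell classes also had peaks, and no listed gene with peaks was at 0. An accessible site near a marker gene does not show that the gene is expressed.

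The 18 peaks assigned to Ncoa2 were looked at first, although an ATAC-seq peak outside the deleted part cannot check a deletion and the labels used here do not give the deleted exons. A peak 49.7 kb upstream of the Ncoa2 start site, at chr1:13423543-13423943, had 12.4, 13.7, 13.5 and 16.5 CPM in KO Dex and 6.59, 8.73, 9.03 and 6.97 CPM in KO vehicle, against 2.96, 2.95, 2.54 and 2.29 CPM in WT Dex and 0.614, 1.34, 1.07 and 1.13 CPM in WT vehicle. KO and WT did not overlap under either treatment. It was higher in KO by a log2 difference of 2.43 with Dex (adjusted p = 1.58e-24) and 2.96 with vehicle (adjusted p = 6.42e-20, edgeR's quasi-likelihood test). Of the 18 peaks, 3 differed between genotypes with Dex and 2 with vehicle. Over all tested peaks, 2.57% were called on the genotype effect averaged over Dex and vehicle. The share of all peaks for each treatment alone is not given here, so nothing is read from the counts of 3 and 2. None of the 18 Ncoa2 peaks had an interaction at an unadjusted p below 0.05, and the smallest was 0.0518 (edgeR).

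Dex acted on both genotypes. It changed 17694 peaks in KO (13.6% of those tested) and 21655 in WT (16.6%), at an adjusted p below 0.05. Averaged over both genotypes, which uses all 16 libraries, 36755 peaks changed (28.3%), of which 18775 opened (14.4%) and 17980 closed (13.8%). Peaks that changed at least 2-fold on this mean effect numbered 1335 opened and 2104 closed. The counts per genotype are set side by side and were not compared with each other. Both groups of peaks lay mostly away from promoters: where the authors' deposited table gives a distance, 3.03% of the opened and 1.99% of the closed peaks lay within 1 kb of a transcription start site (TSS), against 9.66% of all tested peaks.

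No single peak passed the test for a Dex response that differed between genotypes. The edgeR quasi-likelihood test called 0 of 130103 peaks (0%) in the interaction at an adjusted p below 0.05, and the smallest adjusted p was 0.83. At an unadjusted p below 0.05 there were 4498 peaks (3.46%), 2054 (1.58%) with a higher and 2444 (1.88%) with a lower log2 Dex effect in KO. DESeq2's Wald test also called 0, with 2268 peaks at an unadjusted p below 0.05. The authors' deposited table lists 0 of 71942 peaks with an adjusted interaction p below 0.05, its smallest being 0.538, and 2525 with an unadjusted p below 0.05. Its log2 interactions and those computed here had a slope of 1.00.

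**Figure D1:**
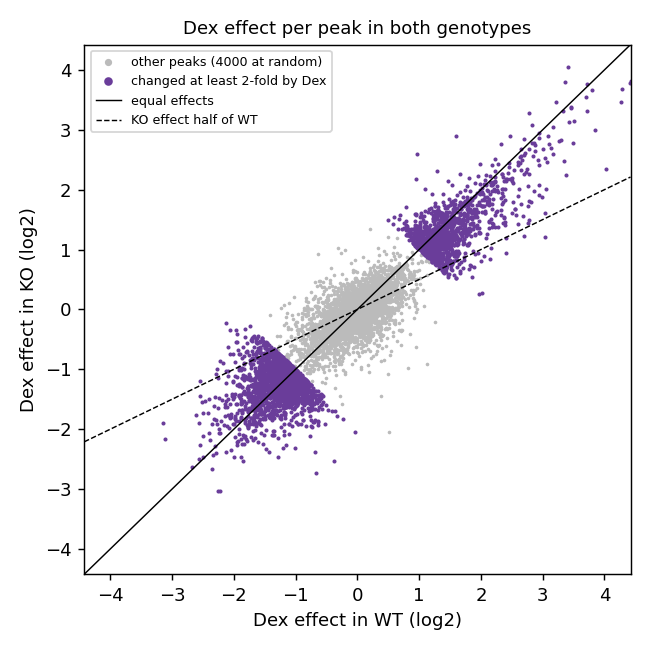
Dex effect of each peak in WT (x axis, log2) and in KO (y axis, log2), with 1 point for each of the peaks that changed at least 2-fold on the mean effect and for 4000 others drawn at random. The points follow the solid line of equal effects, and the 1335 opened and 2104 closed peaks lie on the same side of 0 in both genotypes. The choice of these peaks on the mean effect favours that. The dashed line marks a KO effect 50% of the WT effect.

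The sites known best as glucocorticoid receptor targets opened in both genotypes. Fkbp5 encodes a cochaperone that limits receptor activity. The peak with its clearest Dex effect, at chr17:28518014-28518761 and 0.862 kb upstream of the TSS, had 43.4, 48.4, 48.2 and 52.4 CPM in KO Dex and 6.22, 3.90, 6.67 and 5.77 CPM in KO vehicle. In WT Dex it had 46.9, 51.0, 56.3 and 51.6 CPM, against 3.76, 6.15, 4.16 and 4.23 CPM in WT vehicle. Dex and vehicle libraries were far apart in each genotype, and KO and WT libraries overlapped under each treatment. The Dex effect was 3.15 ± 0.12 in KO and 3.51 ± 0.13 in WT (log2 ± SE), and the interaction was -0.36 ± 0.17 (95% interval -0.71 to -0.02, unadjusted p = 0.0371, adjusted p = 1.00 by edgeR's quasi-likelihood test).

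Zbtb16 encodes a zinc finger repressor and held the peak with the largest mean Dex effect of those at 2 CPM or more. It lies within the gene at chr9:48723286-48724099, 112 kb downstream of the TSS. It had 25.3, 26.9, 20.5 and 23.5 CPM in KO Dex and 1.37, 1.14, 2.22 and 2.29 CPM in KO vehicle, against 24.3, 32.5, 30.3 and 22.9 CPM in WT Dex and 1.15, 0.894, 0.641 and 2.27 CPM in WT vehicle. Its interaction was -0.61 ± 0.32 (95% interval -1.24 to 0.02), and KO and WT overlapped under both treatments.

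Klf9 encodes a KLF transcription factor. Its peak at chr19:23125138-23125795, 15.8 kb upstream, had 13.3, 19.4, 20.4 and 20.7 CPM in KO Dex and 5.72, 5.25, 5.23 and 5.59 CPM in KO vehicle, against 15.5, 22.3, 22.5 and 17.2 CPM in WT Dex and 6.07, 5.48, 5.45 and 5.87 CPM in WT vehicle. The interaction was 0.06 ± 0.18 (95% interval -0.30 to 0.42). Tsc22d3 encodes GILZ, a mediator of glucocorticoid anti-inflammatory action. Its peak at chrX:140511107-140511585 had 19.8, 22.0, 25.0 and 28.0 CPM in KO Dex and 4.23, 5.61, 4.58 and 5.22 CPM in KO vehicle, against 21.0, 26.0, 25.1 and 22.2 CPM in WT Dex and 5.30, 4.47, 5.87 and 6.18 CPM in WT vehicle. Its interaction was 0.16 ± 0.18 (95% interval -0.19 to 0.51). For both genes the 4 Dex libraries of each genotype were all above its 4 vehicle libraries, and KO overlapped WT.

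Cd163 encodes the scavenger receptor for haptoglobin-bound haemoglobin. Its peak at chr6:124279008-124279727 had 5.37, 6.60, 7.24 and 8.53 CPM in KO Dex and 0.622, 1.56, 1.44 and 1.19 CPM in KO vehicle, against 6.90, 9.05, 8.78 and 7.65 CPM in WT Dex and 1.23, 1.34, 0.961 and 1.44 CPM in WT vehicle. The Dex effect was 2.49 ± 0.23 in KO and 2.66 ± 0.23 in WT. Per1 encodes a repressor of the circadian clock. Its peak at chr11:69096967-69097740 had 52.6, 58.7, 56.5 and 62.0 CPM in KO Dex and 28.6, 33.2, 31.1 and 33.0 CPM in KO vehicle, against 59.2, 68.5, 64.3 and 56.8 CPM in WT Dex and 33.0, 30.7, 32.5 and 31.2 CPM in WT vehicle. This abundant peak was measured more closely than the others named so far, with an interaction of -0.08 ± 0.10 (95% interval -0.28 to 0.11).

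**Figure D2:**
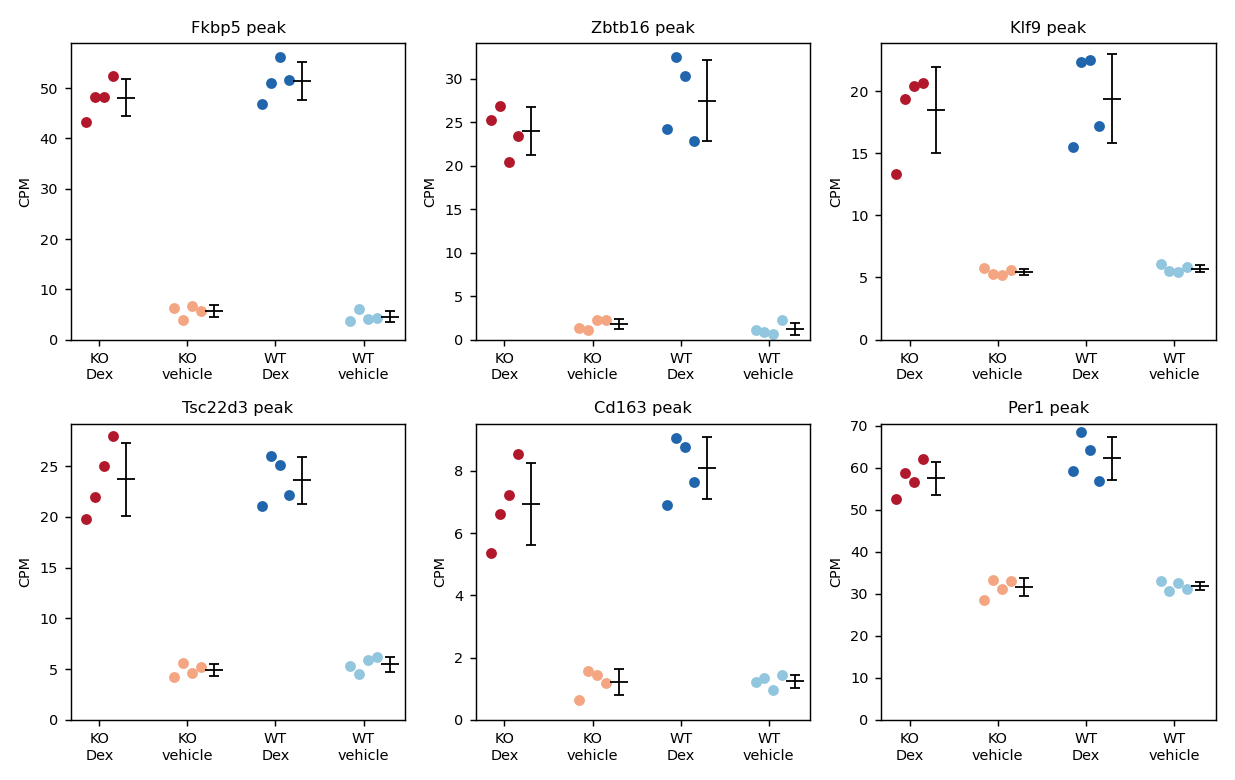
CPM (y axis, from 0) in each library of KO Dex, KO vehicle, WT Dex and WT vehicle for the peak with the smallest p for the mean Dex effect at each of 6 genes; points are libraries, and the bar with whiskers is the mean ± SD (n = 4). In every panel the Dex libraries of a genotype stand above its vehicle libraries, and KO and WT overlap.

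The other fixed genes behaved alike in direction. Dusp1, a phosphatase that switches off MAP kinases, had a peak with a Dex effect of 1.01 ± 0.07 in KO and 0.99 ± 0.07 in WT. Mertk, a receptor for the uptake of apoptotic cells, had 0.81 ± 0.19 in KO and 0.79 ± 0.19 in WT. Each opened on the mean effect, and the same held for the inhibitors of inflammatory signalling. Tnfaip3, which encodes A20, had 1.04 ± 0.15 in KO and 1.19 ± 0.15 in WT. Il1r2, a decoy receptor for interleukin 1, had 1.73 ± 0.21 in KO and 1.68 ± 0.21 in WT. Nfkbia, which encodes an inhibitor of NF-kB, had 0.55 ± 0.07 in KO and 0.63 ± 0.07 in WT. The interaction of these 5 peaks ran between -0.14 and 0.05, with unadjusted p from 0.413 to 0.952.

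The peaks with the largest mean Dex effects had wider intervals than the abundant peaks above. Besides Zbtb16, the 4 largest openings were near Slc31a2 (a copper transporter), Hs6st1 (a heparan sulfate sulfotransferase), Dock10 (a guanine nucleotide exchange factor) and Cyp7a1 (an enzyme of bile acid synthesis in liver). The Slc31a2 peak, within the gene at chr4:62280236-62280431, had 3.28, 3.99, 4.88 and 3.32 CPM in KO Dex and 0.249, 0.213, 0.392 and 0.275 CPM in KO vehicle, against 8.31, 5.72, 4.84 and 4.85 CPM in WT Dex and 0.0768, 0.224, 0.320 and 0.515 CPM in WT vehicle. It opened in both genotypes. With Dex the highest KO library overlapped the lower WT libraries, and KO was lower than WT by a log2 difference of -0.61 (adjusted p = 0.0439, edgeR). Its interaction was -0.62 ± 0.66, and those of Hs6st1 (-0.60 ± 0.45), Dock10 (-0.81 ± 0.74) and Cyp7a1 (0.06 ± 0.45) did not pass either.

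The 5 largest closings were near Rapgef5, Prkcb, Gtdc1, Tnfrsf14 and Supt3. Prkcb encodes protein kinase C beta and Tnfrsf14 a receptor of the TNF family. The Prkcb peak, within the gene at chr7:122327953-122328494, had 1.69, 2.06, 2.28 and 2.19 CPM in KO Dex and 9.70, 12.4, 8.50 and 13.3 CPM in KO vehicle, against 4.29, 1.11, 1.56 and 1.77 CPM in WT Dex and 18.5, 11.2, 8.12 and 8.04 CPM in WT vehicle. Replicate 1 of both WT groups was above the other 3 libraries of its group. Interactions of the 5 peaks lay between -0.11 and 0.21, with standard errors of 0.34 to 0.59.

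Below the calling threshold, the peaks with the smallest interaction p were chosen for mention after their values were seen. The smallest p, 6.59e-06 (adjusted p = 0.83), belonged to chr8:54272947-54273591, 196 kb from the TSS of Vegfc, a lymphatic growth factor. It had 2.69, 2.27, 1.97 and 1.30 CPM in KO Dex and 6.59, 6.17, 4.19 and 4.12 CPM in KO vehicle, against 14.0, 9.42, 10.5 and 11.9 CPM in WT Dex and 15.6, 14.5, 15.8 and 13.2 CPM in WT vehicle. KO was below WT under both treatments. A peak within Kcnj6, a potassium channel gene, at chr16:94766460-94766877, had 3.58, 3.71, 4.01 and 4.09 CPM in KO Dex and 3.98, 3.48, 3.66 and 3.85 CPM in KO vehicle, against 6.34, 6.28, 6.81 and 6.86 CPM in WT Dex and 2.84, 3.35, 2.67 and 4.02 CPM in WT vehicle. Its interaction was -0.99 ± 0.23 (unadjusted p = 3.76e-05, adjusted p = 1.00, edgeR's quasi-likelihood test). These values describe the end of the list and are not calls.

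Averaged over many peaks, opening by Dex was smaller in KO. The mean log2 CPM over the 1335 opened peaks was 2.04, 2.17, 2.17 and 2.23 in KO Dex and 0.920, 0.851, 0.947 and 0.890 in KO vehicle, against 2.28, 2.26, 2.31 and 2.26 in WT Dex and 0.898, 0.831, 0.830 and 0.906 in WT vehicle. All 4 KO Dex libraries were below all 4 WT Dex libraries, while KO vehicle and WT vehicle overlapped. Dex raised the mean by 1.25 in KO and by 1.41 in WT, so the interaction was -0.16 ± 0.05 (log2 ± SE, 95% interval -0.27 to -0.06). In a two-sided exact permutation test that shuffled genotype within each treatment over 4900 arrangements, p was 0.00653. The KO opening was 88.4% of the WT opening, with a 95% interval of 81.5% to 95.9%.

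The peaks themselves leaned the same way. Of the 1335, 916 had a smaller log2 opening in KO (68.6%), against 51.2% of all tested peaks with an interaction below 0. Their median interaction was -0.13, against -0.01 over all tested peaks. At an unadjusted p below 0.05 there were 99 (7.42%, against 3.46% of all tested peaks), of which 94 had the smaller opening in KO. All 1335 had a Dex effect above 0 in KO as in WT, and 1225 were called in KO (6.97% of all tested peaks were called as opened there), 1292 in WT (8.56%) and 1194 in both. The choice on the mean effect in these same libraries favours such signs and calls in both genotypes. They are therefore no measure of how far KO kept the response. The peaks were chosen on the mean of both genotypes, which does not favour either where their errors are alike. The median SE of the Dex effect over these peaks was 0.23 in KO and 0.23 in WT. The fit shares its estimate of spread for a peak among all groups, so these SEs cannot show that the errors are alike. Between libraries, the SD of the mean over these peaks was 0.08 in KO Dex and 0.02 in WT Dex. It was 0.04 in KO vehicle and 0.04 in WT vehicle. The choice of peaks bears on the share: over all peaks called as opened at any size it was 90.2% and did not pass (exact permutation p = 0.187), and a choice on 1 genotype alone, which favours that genotype, gave 77.5% for peaks chosen on the WT effect and 101% for peaks chosen on the KO effect.

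**Figure D3:**
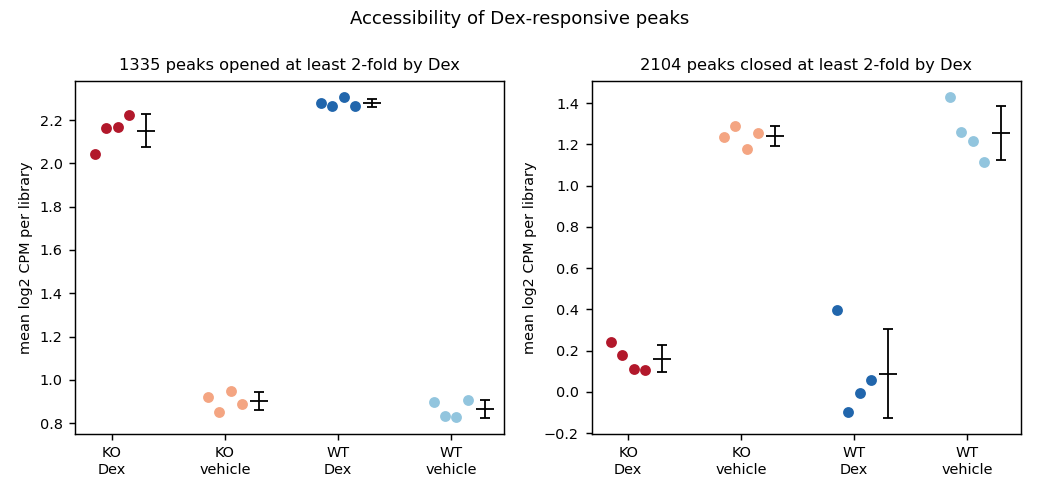
Mean log2 CPM (y axis) over the 1335 peaks opened (left) and the 2104 peaks closed (right) at least 2-fold by Dex, in each library of KO Dex, KO vehicle, WT Dex and WT vehicle; points are libraries, the bar with whiskers is the mean ± SD (n = 4), and the y axes do not start at 0. For opened peaks the KO Dex libraries (2.04 to 2.23) lie below the WT Dex libraries (2.26 to 2.31); for closed peaks the groups overlap.

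For the 2104 closed peaks the difference between genotypes did not pass the test. Their mean log2 CPM was 0.24, 0.18, 0.11 and 0.10 in KO Dex and 1.24, 1.29, 1.18 and 1.26 in KO vehicle, against 0.40, -0.10, -0.00339 and 0.06 in WT Dex and 1.43, 1.26, 1.22 and 1.11 in WT vehicle. WT Dex replicate 1 was the highest library of its group, and KO lay within the WT range. Dex lowered the mean to a difference of -1.08 in KO, against -1.17 in WT, and the interaction was 0.09 ± 0.13 (exact permutation p = 0.517). The KO closing was 92.6% of the WT closing, with an interval of 71.2% to 120%, which holds both equal closing and the share seen for opening. By peak, 1169 of the 2104 had a smaller closing in KO (55.6%), against 48.8% of all tested peaks with an interaction above 0. At an unadjusted p below 0.05 there were 92 (4.37%, against 3.46% of all tested peaks), 66 with the smaller and 26 with the larger closing in KO. Of the 2104, 1754 were called in KO (6.63% of all tested peaks were called as closed there), 1831 in WT (8.08%) and 1558 in both. As for the opened peaks, the choice on the mean effect favours these calls. Whether opening and closing differ in their KO share was not tested.

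Opened minus closed peaks gave 1 score for the whole response, the main measure. It averaged 1.99 ± 0.14 in KO Dex and -0.34 ± 0.09 in KO vehicle, against 2.19 ± 0.21 in WT Dex and -0.39 ± 0.14 in WT vehicle (SD, n = 4 each). The KO response was 90.3% of the WT response (95% interval 78.8% to 103%), and the interaction of -0.25 ± 0.15 did not pass (exact permutation p = 0.123). It passed without WT Dex replicate 1 (85.2%, exact permutation p = 0.0245) and without WT vehicle replicate 4 (87.1%, exact permutation p = 0.0339).

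Grouped by the size of the mean Dex effect, the genotype difference grew with the effect on the opening side. In the 141 peaks with a mean log2 effect of 2 or more, the mean log2 CPM was 2.56, 2.82, 2.82 and 2.88 in KO Dex and 0.653, 0.440, 0.620 and 0.547 in KO vehicle, against 3.02, 3.03, 3.05 and 2.92 in WT Dex and 0.463, 0.415, 0.397 and 0.560 in WT vehicle. KO Dex was below WT Dex in every library. The opening was 2.21 in KO and 2.55 in WT, an interaction of -0.34 ± 0.10 (95% interval -0.55 to -0.13, exact permutation p = 0.00327, adjusted p = 0.0294 over the 9 groups). In the 237 peaks from 1.5 to 2 the interaction was -0.20 ± 0.06 (adjusted p = 0.0306, exact permutation test), and in the 959 peaks from 1 to 1.5 it was -0.13 ± 0.04 (adjusted p = 0.0306, exact permutation test). The 6357 peaks from 0.5 to 1 had -0.07 ± 0.03 and did not pass (adjusted p = 0.136, exact permutation test).

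As a share of the WT effect the KO opening was nearly level over these groups: 89.9% from 0.5 to 1, 89.1% from 1 to 1.5, 88.1% from 1.5 to 2 and 86.6% at 2 or more. Their intervals overlapped widely, from 79.9% to 101% in the first and from 79.2% to 94.7% in the last. In the 3 groups that closed by at least 0.5 the interaction was 0.07 to 0.09, toward a smaller closing in KO, with adjusted p of 0.499 to 0.741 (exact permutation test). In the 2 groups with a mean effect between -0.5 and 0.5, which hold 51941 and 56813 peaks, it was 0.02 and -0.02. All 9 values thus had the sign of a smaller Dex effect in KO, and 3 of them passed. They rest on the same 16 libraries, so they are not 9 separate observations.

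Those calls depended on single libraries. The group at 2 or more missed the threshold without KO Dex replicate 1 (-0.26, adjusted p = 0.0514), KO vehicle replicate 1 (-0.30, adjusted p = 0.0735), KO vehicle replicate 3 (-0.29, adjusted p = 0.0918), KO vehicle replicate 4 (-0.32, adjusted p = 0.0606) or WT Dex replicate 3 (-0.33, adjusted p = 0.0624), all by the exact permutation test. The 2 smaller groups each missed it without KO Dex replicate 1 or 2, any of the KO vehicle libraries or any of the WT Dex libraries, with values of -0.17 to -0.09 from 1 to 1.5 and -0.23 to -0.15 from 1.5 to 2 over all 16 omissions. Without WT vehicle replicate 1 the group from 0.5 to 1 passed as well (-0.12, adjusted p = 0.0147, exact permutation test). The interaction of the opened peaks, tested on its own, passed without any 1 of the 16 libraries, with KO shares of 85.6% to 91.7% and exact permutation p from 0.00204 to 0.049. Peaks were chosen and grouped anew for each omission, so they need not be the same peaks as above. Each omission also left the genotypes with unequal numbers of libraries.

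**Figure D4:**
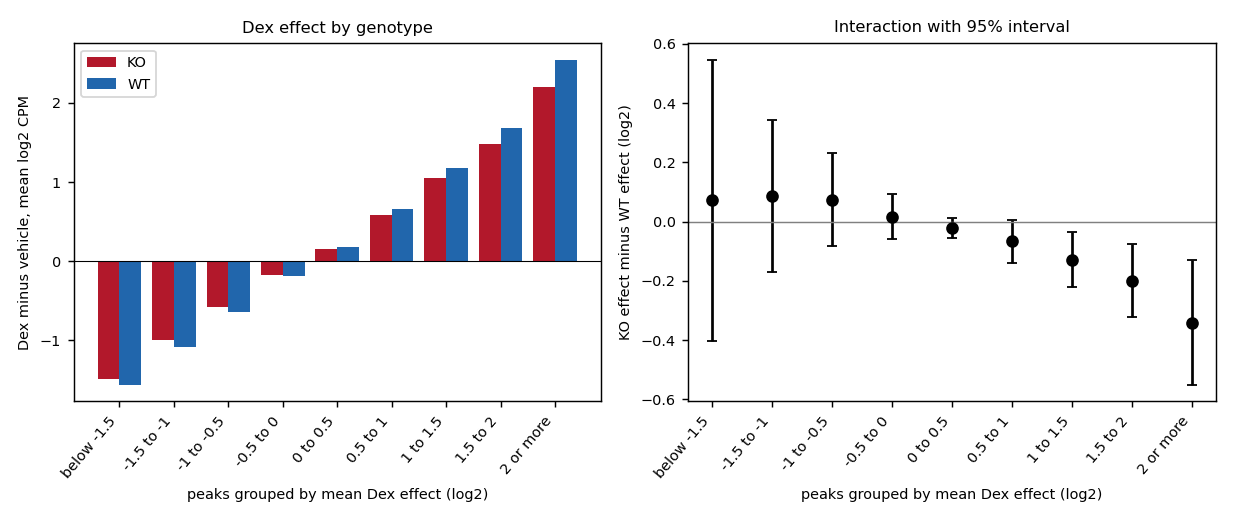
Peaks grouped by mean Dex effect (x axis, log2): the left panel gives Dex minus vehicle in mean log2 CPM for KO and WT as bars from 0, and the right panel the KO effect minus the WT effect (log2) with its 95% interval. The interaction falls from -0.07 in the group from 0.5 to 1 to -0.34 in the group at 2 or more, and the intervals of the 3 groups at 1 or more lie below 0.

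A property of whole libraries moved with genotype and is given beside this result. The slope of a library's log2 CPM on the mean over all libraries, which is higher where a library separates strong from weak peaks more sharply, was 0.992 to 1.06 in KO Dex and 0.977 to 1.02 in KO vehicle, against 1.04 to 1.09 in WT Dex and 1.01 to 1.04 in WT vehicle. It was lower in KO under both treatments on average, and Dex raised it by 0.04 in each genotype, so its own interaction was -0.00108 (exact permutation p = 0.971). With offsets that remove a trend on abundance from each library, chosen for this measure after the data were seen, the KO opening was 88.8% of the WT opening (exact permutation p = 0.0139). The same offsets left the group at 2 or more past the threshold and not the other 2 groups (adjusted p = 0.0845 and 0.0943, exact permutation test). Summed CPM of the macrophage genes and of each of the 7 other marker lists overlapped between KO Dex and WT Dex, and also between KO vehicle and WT vehicle. In bulk samples, fewer cells with an open site and less opening per cell cannot be told apart.

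Distance to the TSS did not sort the interaction. Over all tested peaks with a deposited distance, the interaction was -0.000469 under 1 kb (6952 peaks), -0.000438 from 1 to 10 kb (18291), 0.01 from 10 to 50 kb (30517), 0.01 from 50 to 100 kb (9241) and 0.01 at 100 kb or more (6941). None passed, with an adjusted p of 0.978 in each group (exact permutation test), and the widest of the 5 intervals ran from -0.05 to 0.07. These groups mix peaks that open and close, and their Dex effect lay between -0.05 and 0.04 in both genotypes. Among the opened peaks alone, the KO opening was 88.8% of the WT opening under 1 kb (26 peaks), 91.1% from 1 to 10 kb (203 peaks), 88.0% from 10 to 50 kb (358 peaks), 91.5% from 50 to 100 kb (143 peaks) and 87.4% at 100 kb or more (127 peaks). These 5 shares are a description, and no order with distance is read from them.

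Few promoter windows lay wholly inside a peak that opened this far. Of 32851 promoter windows in RefSeq's GRCm38.p6 table, each from 250 bases before to 50 after a TSS, 16 lay wholly inside a peak opened at least 2-fold. They belong to 15 genes and 15 peaks. How many windows lie wholly inside any tested peak is not given here, so no rate of opening among measured promoters is read from this count. The glucocorticoid response element was searched as the half-site GNACA followed, after any 3 bases, by its reverse complement TGTNC, a pattern that reads the same on both strands. Of all windows, 156 of 32851 hold it (0.475%), and 1 of the 16 does. The windows of 3 of the 15 genes are shown as examples. They are F13a1, the catalytic subunit of clotting factor XIII, Ms4a4a, a membrane protein of macrophages, and 4930430J02Rik. The window of 4930430J02Rik holds the element, in capitals. F13a1 lies at chr13:37049164-37049463 on the minus strand, Ms4a4a at chr19:11375238-11375537 on the plus strand and 4930430J02Rik at chr9:57390820-57391119 on the plus strand.
F13a1: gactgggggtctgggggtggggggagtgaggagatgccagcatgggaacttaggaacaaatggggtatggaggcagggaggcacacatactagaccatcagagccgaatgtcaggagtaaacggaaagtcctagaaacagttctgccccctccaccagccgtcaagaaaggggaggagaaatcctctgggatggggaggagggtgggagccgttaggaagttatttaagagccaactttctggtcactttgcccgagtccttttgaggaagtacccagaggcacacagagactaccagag
Ms4a4a: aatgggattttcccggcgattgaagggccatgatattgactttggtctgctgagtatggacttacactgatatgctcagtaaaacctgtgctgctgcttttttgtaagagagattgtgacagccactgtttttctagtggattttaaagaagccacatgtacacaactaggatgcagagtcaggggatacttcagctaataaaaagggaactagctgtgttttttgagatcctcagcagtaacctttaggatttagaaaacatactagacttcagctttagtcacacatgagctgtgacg
4930430J02Rik: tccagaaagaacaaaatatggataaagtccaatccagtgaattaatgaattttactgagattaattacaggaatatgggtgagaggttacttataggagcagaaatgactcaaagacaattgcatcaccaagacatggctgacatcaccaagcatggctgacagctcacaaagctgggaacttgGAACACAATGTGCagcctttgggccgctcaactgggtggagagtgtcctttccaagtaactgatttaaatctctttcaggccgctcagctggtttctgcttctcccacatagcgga

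The peak over the F13a1 promoter had 14.7, 19.4, 20.4 and 21.0 CPM in KO Dex and 5.72, 5.61, 5.76 and 5.59 CPM in KO vehicle, against 18.2, 23.6, 19.2 and 20.1 CPM in WT Dex and 4.61, 5.59, 3.95 and 5.98 CPM in WT vehicle. Its interaction was -0.24 ± 0.18. The Ms4a4a peak had 15.7, 19.1, 17.2 and 17.7 CPM in KO Dex and 6.71, 4.75, 7.72 and 6.23 CPM in KO vehicle, against 19.0, 17.5, 16.7 and 17.2 CPM in WT Dex and 8.30, 5.59, 5.13 and 7.42 CPM in WT vehicle, with an interaction of 0.12 ± 0.21. Both promoters opened in both genotypes, and KO overlapped WT. The peak with the element, over 4930430J02Rik, had 3.38, 2.89, 4.96 and 4.21 CPM in KO Dex and 2.86, 1.99, 1.44 and 2.66 CPM in KO vehicle, against 5.49, 4.80, 4.19 and 5.23 CPM in WT Dex and 1.46, 2.35, 2.88 and 1.65 CPM in WT vehicle. Its interaction was -0.50 ± 0.29 (95% interval -1.07 to 0.06). A match to the element is a description of these letters and no evidence of receptor binding.

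Counts were next summed over all peaks with the same gene name in the deposited table, which gave 16605 genes. In the edgeR quasi-likelihood test 1 gene passed in the interaction (0.00602%), and 450 had an unadjusted p below 0.05 (2.71%), 211 higher (1.27%) and 239 lower (1.44%) in KO. Dex itself changed 3816 gene sums in KO (23%), 4389 in WT (26.4%) and 6543 on the mean effect (39.4%). The gene was 1700017B05Rik, whose 10 peaks lie on chromosome 9. Its sum was 94.0, 85.8, 92.6 and 93.9 CPM in KO Dex and 93.3, 79.6, 90.7 and 82.0 CPM in KO vehicle, against 197, 201, 201 and 198 CPM in WT Dex and 114, 121, 121 and 125 CPM in WT vehicle. KO was below WT under both treatments, and Dex separated the libraries in WT alone. The Dex effect was 0.10 in KO and 0.73 in WT, an interaction of -0.63 ± 0.08 (adjusted p = 3.69e-07, edgeR).

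None of the 10 peaks passed singly. The largest interactions were -1.18 at chr9:57325981-57326360 (Dex effect -0.14 in KO and 1.05 in WT) and -0.70 at chr9:57317422-57318249 (0.49 and 1.20). In the edgeR test they ranked 38 and 19 among all tested peaks. These peaks and the one given next overlap Gm39343, their nearest gene in RefSeq. They lie 63.6, 55.2 and 56.7 kb from the 1700017B05Rik TSS. Of the 10, only chr9:57278270-57278707 had an interaction above 0 (0.15). The peak at chr9:57318935-57319572 had 3.28, 2.54, 2.52 and 2.90 CPM in KO Dex and 1.62, 1.56, 2.62 and 1.19 CPM in KO vehicle, against 39.3, 38.2, 41.9 and 36.4 CPM in WT Dex and 17.8, 16.8, 17.9 and 17.3 CPM in WT vehicle. It was lower in KO whatever the treatment, and its log2 Dex effect was 0.73 in KO and 1.15 in WT (interaction -0.42, unadjusted p = 0.0696, edgeR). Without peaks that differed on the mean genotype effect the gene's interaction was -0.26 (adjusted p = 1.00, edgeR), with peaks within 10 kb alone it was -0.26 (adjusted p = 1.00, edgeR), and as the mean log2 CPM over its peaks it was -0.45 (adjusted p = 0.705, limma). The first and last of these alternatives were added after the values were seen. Of the 3348 peaks called on the mean genotype effect (2.57%), 510 lay on chromosome 9 and 328 on chromosome 1. These counts are not set against the tested peaks of each chromosome, so no excess is read from them.

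The next genes by p did not pass. Toward a smaller Dex effect in KO they were Kcnv2 (-0.52), Klra1 (-0.51), Pirb (-0.33) and Deaf1 (-0.81), with adjusted p of 1.00 each by edgeR. Klra1 encodes a receptor of the Ly49 family, and its sum was 32.0, 37.9, 36.8 and 40.1 CPM in KO Dex and 18.2, 21.4, 20.8 and 17.2 CPM in KO vehicle, against 53.1, 41.1, 52.8 and 52.6 CPM in WT Dex and 18.8, 17.0, 18.2 and 20.9 CPM in WT vehicle. It opened in both genotypes, with KO Dex below WT Dex in every library. Klra1 and Pirb belong to families of near-identical genes, so their counts are uncertain. In the other direction stood Mir7237 (0.62), 1700020M21Rik (0.25), Rec114 (0.42), Srpx2 (0.65) and Hic1 (0.26), and none passed.

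Pathway lists were summed in the same way, chosen with earlier results of these data known. Of 30 glucocorticoid receptor target genes, 23 rose and 2 fell on the mean effect, against 19.7% of all genes rising and 19.7% falling. By genotype, 19 rose and 1 fell in KO, where 11.5% of all genes rose and 11.5% fell, and 19 rose and 1 fell in WT, where 13.2% rose and 13.2% fell. None of the 30 had an interaction at an unadjusted p below 0.05, and the median interaction was -0.02, against -0.00339 over all genes. Fkbp5 changed most: its 16 peaks summed to 428, 466, 465 and 476 CPM in KO Dex and 144, 125, 148 and 139 CPM in KO vehicle, against 436, 500, 519 and 464 CPM in WT Dex and 130, 135, 127 and 139 CPM in WT vehicle. Its effect was 1.73 in KO and 1.85 in WT, and the interaction of -0.12 ± 0.07 had the smallest p of the list (0.119, edgeR, unadjusted). For 29 of the 30 the 95% interval of the interaction lay within 1.5-fold, and for all 30 within 2-fold.

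Of 29 inflammatory and NF-kB target genes, 11 fell and 2 rose on the mean effect, against 19.7% of all genes in each direction, and 16 were not called. In KO 9 fell, against 11.5% of all genes, and in WT 9 fell, against 13.2%. None had an interaction at an unadjusted p below 0.05. Il1a, which encodes interleukin 1 alpha, had 133, 133, 150 and 158 CPM in KO Dex and 217, 189, 171 and 193 CPM in KO vehicle, against 157, 129, 143 and 139 CPM in WT Dex and 213, 206, 218 and 200 CPM in WT vehicle. It fell in both, with an interaction of 0.13 ± 0.08, the smallest p of the list. Icam1, an adhesion molecule, changed most, by -0.90 in KO and -0.71 in WT from 1 peak. Of 23 interferon-stimulated genes, 7 fell and 2 rose on the mean effect, against 19.7% of all genes in each direction, and none had an interaction at an unadjusted p below 0.05. In that list Oas1a had the smallest interaction p (0.31 ± 0.27) and Gbp2 the largest mean effect, -0.74 in KO and -0.72 in WT.

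Among 16 coregulator genes, 17 KLF genes and 16 clock genes, 0 had an interaction at an unadjusted p below 0.05 by edgeR. On the mean effect 4 coregulators rose and 3 fell, 6 KLF genes rose and 3 fell, and 3 clock genes rose and 2 fell. Over all genes 19.7% rose and 19.7% fell, and nothing particular to these 3 lists is read from their counts. Klf9 had the largest mean effect of the KLF genes, with 1.41 in KO and 1.58 in WT (interaction -0.17 ± 0.14), and Per1 of the clock genes, with 0.42 in KO and 0.39 in WT (interaction 0.03 ± 0.08). The smallest interaction p belonged to Crebbp, a histone acetyltransferase (-0.26 ± 0.21), Klf7 (-0.09 ± 0.06) and Per3 (0.17 ± 0.09), and Smarca4, the ATPase of a remodelling complex, had the largest mean effect of the coregulators, -0.16 in KO and -0.35 in WT.

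Of 24 efferocytosis and scavenger genes, 11 rose and 4 fell on the mean effect, against 19.7% of all genes in each direction. Cd163 rose most, by 1.21 in KO and 1.20 in WT (interaction 0.01 ± 0.12). Gas6, a ligand that bridges apoptotic cells to Mertk, was the 1 gene of the list with an unadjusted p below 0.05 (edgeR, adjusted p = 1.00). It had 115, 126, 119 and 122 CPM in KO Dex and 85.3, 103, 98.2 and 94.1 CPM in KO vehicle, against 101, 126, 134 and 120 CPM in WT Dex and 109, 113, 117 and 101 CPM in WT vehicle. Its Dex effect was larger in KO, 0.33 against 0.12 in WT, which is opposite to the direction of the opened peaks, and KO and WT overlapped with Dex.

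In the marker lists the interaction did not pass for any gene. Cx3cr1, the fractalkine receptor, had the smallest interaction p (0.12 ± 0.07) and the largest mean effect of the 15 macrophage genes, -0.18 in KO and -0.29 in WT. The smallest p of the lists for other cells belonged to Mmp8 (0.19 ± 0.12, neutrophils), Flt3 (0.17 ± 0.08, dendritic cells), Cd79b (0.10 ± 0.15, B cells), Ncr1 (0.49 ± 0.27, T and NK cells), Pdgfrb (-0.22 ± 0.09, stroma), Ms4a2 (0.48 ± 0.39, mast cells) and Epor (-0.28 ± 0.20, erythroid cells). Only Flt3 and Pdgfrb of all marker genes had an unadjusted p below 0.05 (0.0289 and 0.0157, edgeR). The largest mean effects of the lists other than the erythroid one were those of S100a8 (0.65 in KO and 0.50 in WT), Xcr1 (-0.32 and -0.31), Ms4a1 (-0.30 and -0.36), Cd3e (0.70 and 0.56), Col1a1 (0.48 and 0.36) and Ms4a2 (0.85 and 0.37), in each pair with KO before WT.

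How large a difference between genotypes these data leave room for depends on how many counts a peak holds. The 95% interval of the interaction had a median half-width of 0.58 on the log2 scale, or 1.49-fold. It lay wholly within 2-fold for 87489 peaks (67.2%) and within 1.5-fold for 43201 (33.2%). In 4 equal classes of abundance, from the rarest to the most abundant, 10.8%, 63.7%, 94.7% and 99.7% of the peaks lay within 2-fold. A test of equivalence to a 2-fold interaction, adjusted over all peaks, passed for 92738 peaks (71.3%), and against 1.5-fold for 36952 (28.4%). For the other peaks this test did not place the difference between genotypes within 2-fold.

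Sums over genes were tighter. Their median half-width was 0.24 on the log2 scale, or 1.18-fold, and the interval lay within 2-fold for 15975 of 16605 genes (96.2%) and within 1.5-fold for 13366 (80.5%). Among the 1335 opened peaks 772 had an interval within 2-fold (57.8%) and 260 within 1.5-fold (19.5%). Of the 2104 closed peaks 742 lay within 2-fold (35.3%).

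**Figure D5:**
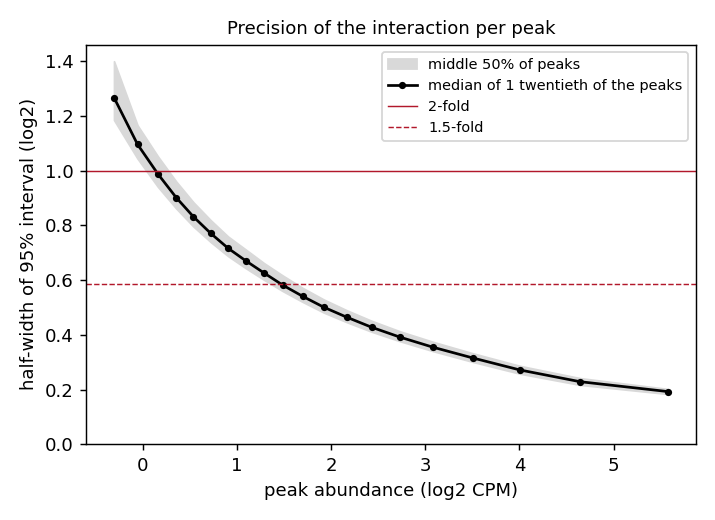
Half-width of the 95% interval of the interaction (y axis, log2, from 0) against peak abundance (x axis, log2 CPM), as the median and the middle 50% of peaks in each of 20 equal bins. The red lines mark 2-fold and 1.5-fold; the median over all peaks is 0.58, and abundant peaks fall well below the 1.5-fold line.

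The same interval was set against a KO effect 50% of the WT effect. In 778 of the 1335 opened peaks (58.3%) the interval put the KO opening above 50% of the WT opening, in 0 it put it below, and in 557 it held 50%. In 1040 (77.9%) it put the KO opening below double the WT opening, and in 0 above double. For the closed peaks 895 of 2104 (42.5%) were above 50%, 0 below and 1209 held it. The choice of peaks on the mean of both genotypes works against peaks that lost their response in KO. Such a peak enters only if its WT effect is large. The counts of 0 below 50% are therefore partly set by that choice. They do not show how many peaks lost the response in KO. Averaged over the opened peaks the bound was far closer: a loss of 11.6% of the WT opening, with a 95% interval from 4.15% to 18.5%, so that losses above 18.5% on average lay outside the interval. For opened minus closed peaks the interval reached a loss of 21.2%, and for closed peaks a loss of 28.8%. These intervals hold for peaks chosen on the mean effect and do not cover that choice. With peaks chosen on the WT effect alone, which favours WT, the KO shares were lower. With peaks chosen on the KO effect alone, the KO share of opening was higher.

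IL4, the other treatment of the series, shares its vehicle libraries with Dex, so the 2 results are not separate. Over 9780 peaks opened at least 2-fold by IL4 the KO opening was 87.9% of the WT opening (95% interval 78.3% to 98.5%, exact permutation p = 0.0253), and over 1308 closed peaks the KO closing was 91.5% (70.1% to 119%, exact permutation p = 0.461). Beside these stand 88.4% and 92.6% for Dex. The difference in KO share between Dex and IL4 was not tested.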

How the data were processed

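ATAC-seq libraries of bone marrow derived macrophages were grouped by genotype and treatment from their titles. The authors deposited a matrix of raw counts for 144411 peaks, and a table of log2 interaction, p-value and F statistic (a score) for 71942 of them, with gene names and distances to the TSS. Per the submitters' processing notes, fastp, Bowtie2, SAMtools, MACS2, featureCounts and edgeR were used with the mm10 build; their roles, their versions and whether peaks were called per library or on pooled libraries are not given in the sources used here.

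Counts of all 24 libraries were fitted in R 4.3.3 with edgeR 4.0.16 (filterByExpr, which removed 14308 peaks; TMM; quasi-likelihood test; Benjamini-Hochberg adjustment), and the interaction was taken as KO Dex minus KO vehicle, less WT Dex minus WT vehicle. Log2 CPM used a prior count of 2. Gene sums added the counts of peaks with the same deposited gene name, so a peak was counted for the gene it was assigned to, which need not be its target. Averages over many peaks were tested by an exact two-sided permutation of genotype within treatment (4900 arrangements, smallest p 0.000408), which is exact where genotype has no effect at all; intervals rest on the 16 library values, and those of ratios are Fieller intervals. Opened and closed peaks are those called on the mean Dex effect at 2-fold or more.

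Peaks to name were, for 11 fixed genes, the peak with the smallest p for the mean Dex effect, and the 5 peaks of each direction with the largest mean effect at 2 CPM or more. Genes to name were the 5 of each direction with the smallest interaction p and, in each of 15 lists, the genes with the smallest interaction p and the largest mean effect; 1 such gene is not reported here. The members and lists were chosen with earlier results of these data known. The scripts were checked on simulated data. Alternatives used DESeq2 1.42.0, limma 3.58.1, other filters and normalizations, replicate blocks and the omission of each library. Counts in peaks ranged from 5820149 to 21939330 per library. Replicates of a group differed by more than sampling noise.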

Additional observations from a re-analysis of the deposited data

Results flagged for a closer look

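The difference in Dex effect between KO and WT passed its own test in 5 results. They were the opened peaks (-0.16), the groups of peaks with a mean log2 Dex effect of 1 to 1.5 (-0.13), 1.5 to 2 (-0.20) and 2 or more (-0.34), and the gene sum of 1700017B05Rik (-0.63), all as KO minus WT on the log2 scale. The 4 peak results share peaks and libraries. The main measure, opened minus closed peaks, did not pass (exact permutation p = 0.123). The effect-size groups and the gene sum lost their calls under some of the alternatives given below.

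In 6 of 192 groups of 4 libraries (3.12%) a single library stood apart from the other 3 by Dixon's criterion, which chance meets in about 1 in 20 groups. The 1700017B05Rik sum was lowest in KO Dex replicate 2, at 85.8 CPM, against 92.6 to 94.0 CPM in the other 3 libraries. Klra1 was lowest in WT Dex replicate 2, at 41.1 CPM, against 52.6 to 53.1 CPM. Deaf1 was lowest in WT Dex replicate 3, at 5.72 CPM, against 7.95 to 8.30 CPM. Kcnv2 was highest in WT vehicle replicate 1, at 31.9 CPM, against 24.7 to 25.8 CPM. The Tnfrsf14 peak was highest in WT Dex replicate 1, at 2.46 CPM, against 0.923 to 0.985 CPM. The mean log2 CPM of peaks with a Dex effect of -1 to -0.5 was highest in KO vehicle replicate 1, at 1.17, against 1.08 to 1.09.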

How the results depend on the processing

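The number of single peaks called in the interaction stayed at 0 under every alternative but 1: with a replicate block within genotype, 1 peak passed, the Vegfc peak. For genes the count was 3 with that block, and 0 with peaks within 10 kb, without peaks called on the mean genotype effect, or by limma on mean log2 CPM. Without any single library, 0 peaks and 1 gene passed.

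Of the effect-size groups 3 passed. With loess offsets on abundance 1 passed, with a replicate block (Dex minus vehicle per number) 0, and without a single library 0 to 4. The block's test has few arrangements. After adjustment over the 9 groups, its smallest possible p passes only if most groups reach it. Its 0 calls therefore do not show that a block removes the difference. From 1 to 1.5 the interaction was -0.13 with loess offsets and -0.13 with the block, neither passing, and -0.17 to -0.0852 without a single library. From 1.5 to 2 it was -0.20 with either, neither passing, and -0.23 to -0.15 without a single library. At 2 or more it was -0.34 with the block, not passing, and -0.39 to -0.26 without a single library; from 0.5 to 1 the omissions gave -0.12 to -0.0319.

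The KO share of opened minus closed peaks was 74.0% for peaks chosen on the WT effect (exact permutation p = 0.000408, the smallest possible) and 85.2% to 94.0% without a single library. For opened peaks it was 90.2% for peaks called at any size and, in reverse, 101% for peaks chosen on the KO effect; for closed peaks it was 70.0% for peaks chosen on the WT effect. Choosing on 1 genotype favours that genotype by construction; the cause of the other changes was not tested. Distance groups gave 0 calls throughout.

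The labels do not say that replicate numbers pair the libraries, and they were not treated as pairs: deviations of same-numbered Dex and vehicle libraries correlated at 0.118, 0.0783, 0.00337 and 0.108 in KO and 0.202, 0.0511, 0.069 and 0.12 in WT. Every number correlated best with itself except KO 3, a hint of pairing from the data and not from the design. The block's exact permutation test cannot go below p = 0.0286, the value it gave for the opened peaks. Depth limits single peaks: in the rarest of 4 equal classes of peaks 10.8% of intervals lay within 2-fold.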
